A study of Mus musculus with 34 samples.

Results

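The genes described here encode the receptors for the main neurotransmitters: ionotropic and metabotropic glutamate receptors, GABA and glycine receptors, nicotinic and muscarinic acetylcholine receptors, and the receptors of dopamine, serotonin and noradrenaline. Their CpG islands were chosen by the gene name that the array gives to each probe. An island is a run of at least 3 probes with gaps of at most 500 bases. All autosomal islands in which at least 3 probes have a matching gene name were taken. This gave 90 islands with 579 probes and 58 gene names, out of 13651 islands scored on all 34 arrays. A receptor island held 3 to 21 probes. One autosomal island of Grm6 held too few probes with a matching name to count, and 4 islands of Gria3, Gabre, Gabrq and Htr2c on the X chromosome were left out by the rule. The name pattern also took 2 islands of Drd1ip and 4 of Grid2ip, which encode proteins that bind a dopamine receptor and a delta glutamate receptor. Islands named Grik5-Zfp574 and Chrnb2-Ube2q1 lie at a promoter shared with another gene.

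DNA methylation was measured by methylated DNA immunoprecipitation (mDIP), in which an antibody against 5-methylcytidine pulls down methylated fragments. Bound DNA was labelled with Cy5 and input DNA with Cy3, and both were hybridised to an Agilent array of mouse CpG islands. For each array the log ratio of bound over input was turned into a Z-score over all probes. Averaging these Z-scores over the probes of an island gives its island methylation score (IMS). A score of 0 is therefore the mean of all probes of that array, and 1 unit is 1 SD of these probes.

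Normal adult tissue was represented by 16 arrays, 2 for each of colon, pancreas, brain, kidney, liver, lung, muscle and spleen from mice of 3 months. Post-implantation embryos gave 5 arrays, 1 for each of 8.5, 9.5, 10.5, 11.5 and 12.5 dpc. Undifferentiated ES cells were the lines EB5, J1 and TT2, with 1 array each. ES cells differentiated in vitro gave 5 arrays. Embryoid bodies were TT2 cells kept for 2 days in hanging drops and 4 days in suspension. Retinoic acid, at 1 µM for 8 days, was given to TT2 cells by the label, while the methods name J1. Endoderm (2 arrays) and mesoderm (1 array) came from EB5-derived reporter cells exposed to Activin A at 10 ng/ml for 6 days and were then sorted. Lineage and parent line are thus joined and cannot be told apart. Teratomas (2 arrays) grew for 2 weeks in immunodeficient mice and can hold cells of the host; the label gives J1 as their origin and the methods name other lines. Purified β cells of the pancreas, the β cell line Min6 and the α cell line αTC, both grown from mouse islet tumours, had 1 array each. No label says that replicate arrays came from separate animals, so that p-values measure the spread between these arrays, and the number of arrays limits the precision.

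Ionotropic receptors are ion channels that open when the transmitter binds, and each is built of several subunits encoded by separate genes. Metabotropic glutamate, GABA-B, muscarinic, dopamine, serotonin and adrenergic receptors of this list act instead through G proteins. Most of these genes are active in neurons, whereas adrenergic and muscarinic receptors also serve smooth muscle, heart and glands. Many carry a CpG island at their promoter, and CpG islands at promoters are as a rule unmethylated in normal cells, whether or not the gene is active there. Islands inside genes are more often methylated.

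Sequences are shown for 5 receptor promoters, because these differ widely in the number of CpG sites, the sites that carry most DNA methylation in mammalian cells. Grin2c, Drd5 and Chrna3 are islands at gene starts that were higher in differentiated ES cells, and Gabrg3 and Adra2b are among the islands with the lowest scores in adult tissue. The 250 bases before the annotated start are given in the direction of transcription, from RefSeq on GRCm38.p6, with each CpG in capitals.
Grin2c (GRCm38.p6, chr11:115267244-115267493, - strand): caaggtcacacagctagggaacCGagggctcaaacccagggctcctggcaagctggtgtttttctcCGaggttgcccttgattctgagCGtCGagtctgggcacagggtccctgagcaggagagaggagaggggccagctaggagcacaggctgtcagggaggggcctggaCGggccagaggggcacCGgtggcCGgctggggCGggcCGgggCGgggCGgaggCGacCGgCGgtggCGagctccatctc
Drd5 (GRCm38.p6, chr5:38319259-38319508, + strand): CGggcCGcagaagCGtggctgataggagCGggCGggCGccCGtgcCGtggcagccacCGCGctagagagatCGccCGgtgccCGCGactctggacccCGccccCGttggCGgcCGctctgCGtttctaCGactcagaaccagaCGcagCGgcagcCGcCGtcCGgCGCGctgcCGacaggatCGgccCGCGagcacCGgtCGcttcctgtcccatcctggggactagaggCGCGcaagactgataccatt
Chrna3 (GRCm38.p6, chr9:55026563-55026812, - strand): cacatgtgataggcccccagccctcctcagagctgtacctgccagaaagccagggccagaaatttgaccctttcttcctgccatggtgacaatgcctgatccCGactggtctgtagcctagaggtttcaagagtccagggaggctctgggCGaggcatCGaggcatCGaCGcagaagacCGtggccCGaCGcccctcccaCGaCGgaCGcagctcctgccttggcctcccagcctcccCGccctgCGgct
Gabrg3 (GRCm38.p6, chr7:57387216-57387465, - strand): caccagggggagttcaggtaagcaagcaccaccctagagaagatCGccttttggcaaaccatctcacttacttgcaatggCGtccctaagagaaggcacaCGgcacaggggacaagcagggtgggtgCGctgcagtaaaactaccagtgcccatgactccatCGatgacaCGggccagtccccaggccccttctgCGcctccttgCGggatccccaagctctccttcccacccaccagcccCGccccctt
Adra2b (GRCm38.p6, chr2:127362929-127363178, + strand): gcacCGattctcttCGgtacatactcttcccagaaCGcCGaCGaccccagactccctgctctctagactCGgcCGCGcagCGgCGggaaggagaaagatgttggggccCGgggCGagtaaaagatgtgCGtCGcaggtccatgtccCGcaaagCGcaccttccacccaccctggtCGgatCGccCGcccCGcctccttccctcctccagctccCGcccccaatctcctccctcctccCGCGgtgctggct

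The Drd5 window held 35 CpG sites, that of Adra2b 23, that of Grin2c 15, that of Chrna3 13 and that of Gabrg3 9. The Drd5 sites covered the whole window, whereas those of Grin2c and Chrna3 crowded towards the start. Over the 27025 genes in the table the median was 6 CpG sites, and over the 41 of 58 receptor genes found in it 14. At least 35 sites were present in 2.82% of all promoters and at least 9 in 40.7%. These windows are on another build than the array, which is annotated on mm9, so that probes were not placed on them.

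On 33 of the arrays the log ratios followed the authors' deposited Z-scores closely (Pearson's r across probes 0.894 to 0.991). The array of the line J1 did not (r = 0.113), and its label could not be checked further. Median input signal was 3.07 to 7.34 times its local background on the other arrays, and median bound signal only 1.54 to 5.59 times. On these arrays 0.113% to 9.14% of the log ratios were exactly 0. The arrays lay on 23 slides scanned on 16 days. Embryo and adult arrays shared no slide, scan day or scanner software version, so that this comparison cannot be separated from such batches. Differentiated ES cells shared 2 slides with adult tissue. Each sample is a mixture of cells, and methylation of all sites in part of the cells cannot be told apart from partial methylation in all of them.

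In normal adult tissue the receptor islands spanned nearly the full range of scores. Scores of different islands also depend on their CpG density, so their order is a description. Islands below 0 on all 16 adult arrays numbered 13 of 90, beside 30.6% of all islands. At the other end, 11 of the 90 were above 0.75 on all adult arrays, beside 7.41% of all islands. The lowest mean belonged to an island inside Grin1, which encodes the subunit that every NMDA receptor contains, at -0.697 ± 0.239 (SD, n = 16). Next came the start of Gabrg3, a GABA-A receptor subunit, at -0.648 ± 0.343, and Adrb3, the β-adrenergic receptor of fat cells, at -0.617 ± 0.515. The neighbours in this low order lay within their spread of one another.

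The highest adult means were found inside genes and not at their starts. The island at 6047 to 6432 bases from the start of Grin3b, an NMDA receptor subunit that lowers calcium entry, had 3.34 ± 0.382. An island inside Chrna4, the α subunit of the main nicotinic receptor of the brain, had 3.34 ± 0.346. Grm6, the glutamate receptor of retinal ON bipolar cells, had 3.30 ± 0.346, and Grm4, a presynaptic glutamate receptor, had 3.15 ± 0.410 at one of its 5 islands. An island inside the kainate receptor gene Grik5 had 2.92 ± 0.179. The first 4 of these differed by less than their spread. By position, the median adult score was -0.0979 over the 41 islands at gene starts and 0.375 over the 32 inside genes.

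**Figure D1:**
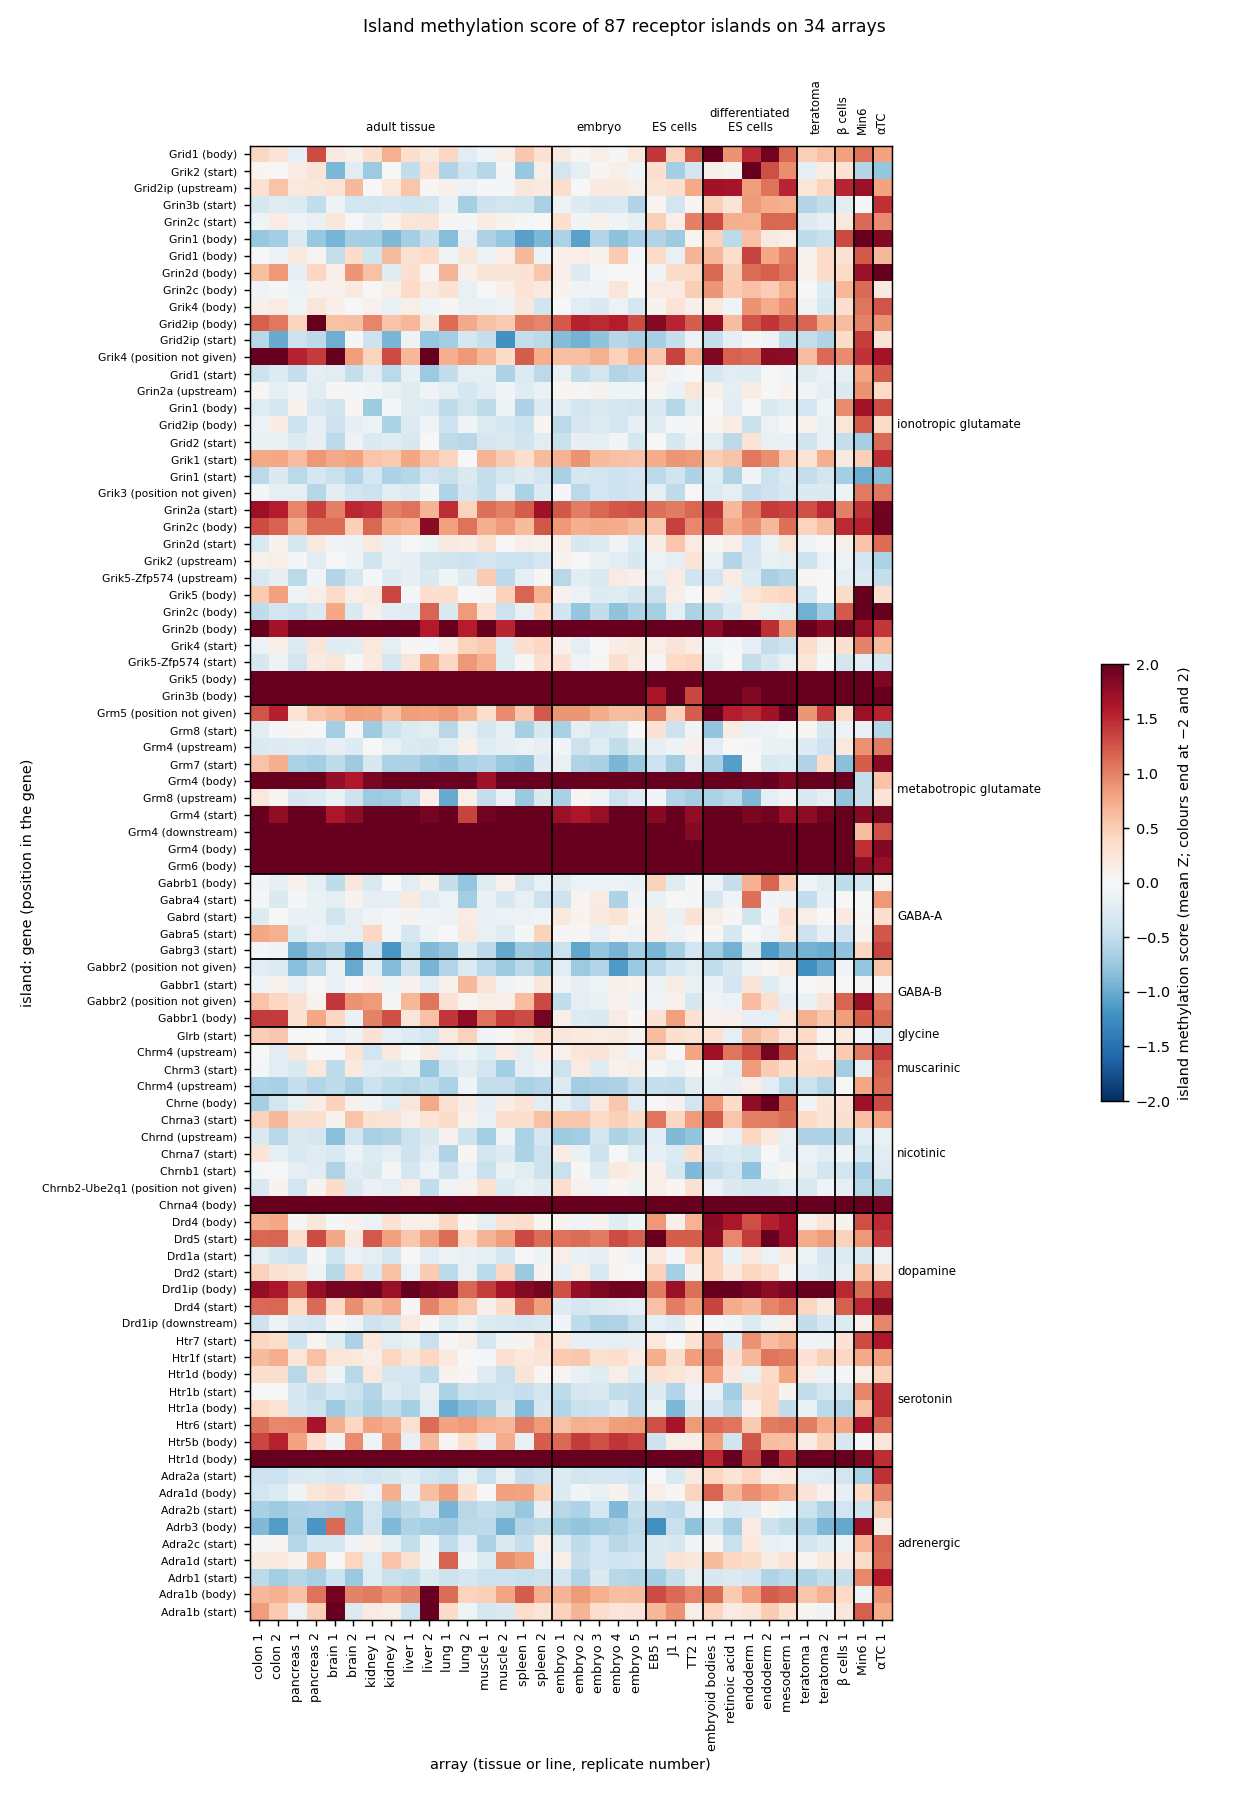
Island methylation scores (mean Z-score, colour) of 87 of the 90 receptor islands (rows, by family and, within a family, by how far differentiated ES cells exceed adult tissue) on the 34 arrays (columns). The 5 columns of differentiated ES cells are redder than adult tissue at the top of most families, and Min6 and αTC are red over many of the rows.

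The question addressed by the main comparison is whether ES cells differentiated in culture carry methylation at islands that normal tissue lacks. Of the 90 receptor islands 38 differed between the 5 differentiated and the 16 adult arrays at a Benjamini-Hochberg adjusted p under 0.05 in limma, fitted over all islands, beside 22.9% of all islands. They were higher in differentiated ES cells at 31, or 34.4% of the receptor islands beside 14.4% of all islands, and lower at 7, or 7.78% beside 8.53%. The median difference of the receptor islands was 0.154 and that of all islands -0.0104. With median-centred log2 ratios these medians were 0.0653 and -0.0930, and with normexp on median signals -0.00768 and -0.0764. The median-centred values are in log2 units and not in SD of the probes, so that their size cannot be set against 0.154. With normexp the receptor median changed sign. The median of all islands was also lower in both settings. Whether the receptor islands differ from other islands was not tested. With the slide as a block, 23 receptor islands were called, 21 higher and 2 lower, beside 1973 of all 13651 islands. Of the 7 islands lower without the block only that of Grm6 was still called, the other being an island of Grin2b. With the background corrected by normexp on median signals, 14 were called, 11 higher and 3 lower, beside 1200 of all islands. Of the 38, 37 kept their direction. The deposited Z-scores held 44 of the 90 islands and gave 16 higher and 1 lower, beside 1304 called of all 5847 islands. Without these changes 3129 of all islands were called.

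The 31 islands that were higher in differentiated ES cells had a median score of 0.000210 in adult tissue, -0.0536 in embryos, 0.204 in undifferentiated and 0.817 in differentiated ES cells. At 7 of the 31 all differentiated arrays were above all adult arrays, beside 17.4% of all islands called higher and 2.51% of all islands. The 7 islands that were lower started from a high level, with a median of 3.15 in adult tissue and 2.47 in differentiated ES cells. Gabbr1 was the exception among the 7, with an adult mean of 1.01. Both sets were chosen by this contrast, so their adult and differentiated levels only describe them.

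**Figure D2:**
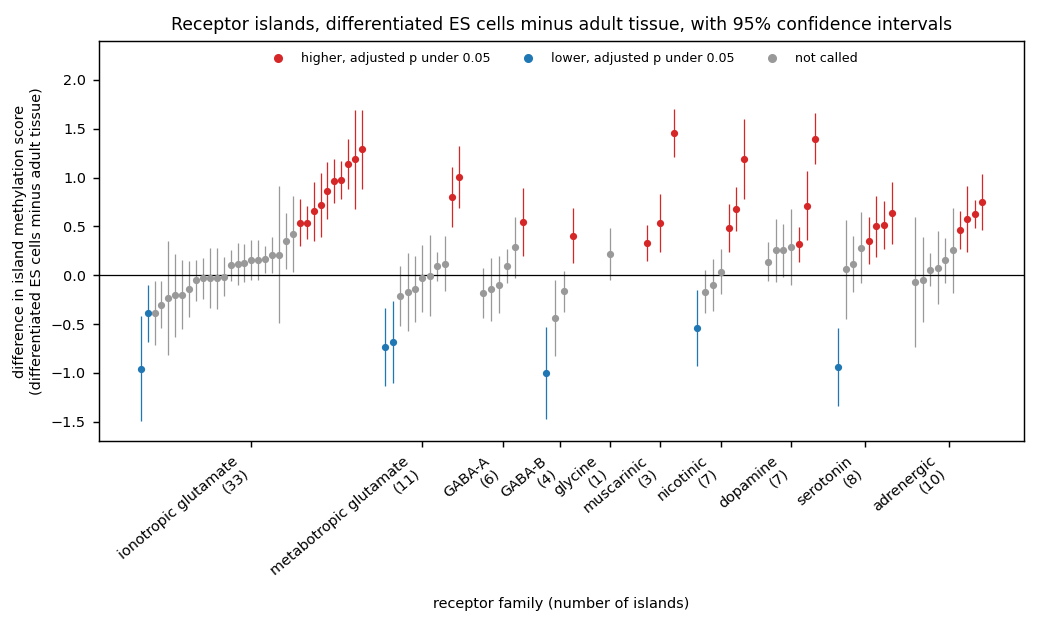
Difference in island methylation score (differentiated ES cells minus adult tissue, in Z-score units) for each of the 90 receptor islands with its 95% confidence interval from limma, grouped by receptor family. Red and blue points passed an adjusted p under 0.05; red points occur in every family but glycine, and the 7 blue points are spread over 5 families.

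Muscarinic acetylcholine receptors, which act through G proteins, had 3 islands, and all 3 were higher. Chrm4, an inhibitory receptor of the striatum, held the largest difference of all 90 islands. This island (chr2:91763881-91764232) lies at -3502 to -3196 bases from the gene start by the array's annotation, where negative values are upstream. Its lowest, median and highest adult scores were -0.378, 0.000448 and 0.272, and the embryos had 0.0833, 0.247, 0.252, 0.125 and -0.0914 in order of age. Differentiated ES cells had 1.68 in embryoid bodies, 1.07 after retinoic acid, 1.29 and 1.91 in endoderm and 1.27 in mesoderm. All 5 lay far above the adult range. The difference was 1.46 ± 0.122 (SE; limma adjusted p = 8.39e-10). Undifferentiated cells had 0.247 in EB5, -0.0136 in J1 and 0.793 in TT2, so that TT2 alone of the 3 lines was above the adult range. The second Chrm4 island, further upstream, differed by 0.330 ± 0.0884, and the start of Chrm3, the receptor of glands and smooth muscle, by 0.533 ± 0.144.

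Nicotinic receptors are acetylcholine-gated channels, and of their 7 islands 3 were higher and 1 lower. Chrne encodes the subunit that marks the adult form of the muscle receptor. Its island (chr11:70428838-70429307), at 3417 to 3835 bases inside the gene, had adult scores of -0.669, 0.111 and 0.762 (lowest, median, highest). The differentiated arrays had 0.867 in embryoid bodies, 0.362 after retinoic acid, 1.78 and 1.99 in endoderm and 1.16 in mesoderm. 4 of these exceeded every adult array and the retinoic acid array did not. The difference was 1.19 ± 0.199 (adjusted p = 5.05e-05). In undifferentiated cells the scores were -0.0114 in EB5, 0.0931 in J1 and -0.388 in TT2, all within the adult range. Chrna3, the α subunit of autonomic ganglia, was higher at its start (chr9:54873970-54874529) by 0.675 ± 0.110 (adjusted p = 3.42e-05), and Chrnd, a muscle subunit, upstream of its start by 0.484 ± 0.119. Chrna4 had a difference of -0.540 ± 0.188, a call that was lost when embryoid bodies, endoderm replicate 1 or mesoderm was left out.

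Dopamine receptors and the receptor-binding protein Drd1ip had 7 islands, of which 3 were higher and none lower. Drd4, an inhibitory receptor of the prefrontal cortex, had the second largest difference. Its island inside the gene (chr7:148479559-148480877, at 1678 to 2944 bases) had adult scores of -0.174, 0.111 and 0.770 and differentiated scores of 1.82 in embryoid bodies, 1.62 after retinoic acid, 1.30 and 1.55 in endoderm and 1.69 in mesoderm. The groups did not overlap, and the 5 differentiated arrays were close together. The difference was 1.40 ± 0.128 (adjusted p = 4.19e-09). All 10 probes with a distance to the start had a higher mean in differentiated ES cells, between 0.653 and 2.06, than in adult tissue, between -0.217 and 0.707. The island at the start of the same gene differed by only 0.254 ± 0.156 (adjusted p = 0.253). Drd5, whose promoter holds the most CpG sites of the sequences shown, was higher at its start (chr5:38710425-38711165) by 0.710 ± 0.172 (adjusted p = 0.00297), from an adult mean of 0.861 to 1.57. Drd1a, the excitatory receptor of the striatum, differed by 0.316 ± 0.0892.

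Ionotropic glutamate receptors, with the delta-receptor scaffold Grid2ip, formed the largest family, with 33 islands. Of these 10 were higher, 2 lower and 21 not called. Grid1 encodes a delta subunit that organises synapses. An island inside the gene (chr14:35635981-35636351, at 2652 to 2978 bases) had adult scores of -0.212, 0.274 and 1.31 and differentiated scores of 2.44 in embryoid bodies, 0.903 after retinoic acid, 1.51 and 1.92 in endoderm and 1.15 in mesoderm. Here 3 differentiated arrays exceeded all adult arrays, of which pancreas replicate 2 was the highest. The difference was 1.29 ± 0.196 (adjusted p = 1.39e-05). Undifferentiated lines already had 1.41 in EB5, 0.451 in J1 and 1.26 in TT2.

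Grik2, a kainate receptor subunit, showed a split among the differentiated cells at its start (chr10:49502783-49503221). Adult scores were -0.900, -0.130 and 0.306, and the differentiated arrays had 0.119 in embryoid bodies, 0.0642 after retinoic acid, 2.33 and 1.29 in endoderm and 0.929 in mesoderm. The 3 arrays of EB5-derived endoderm and mesoderm exceeded every adult array, whereas the embryoid body and retinoic acid arrays were within the adult range. The difference was 1.19 ± 0.247 (adjusted p = 0.000659), and it was not called with the scan day as a block. Undifferentiated EB5 cells, the parent line of the 3 high arrays, had 0.341, just above the highest adult score. J1 had -0.682 and TT2 -0.372, both within the adult range. A second island upstream of Grik2 differed by -0.0526 ± 0.101 and was not called.

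Grid2ip was higher at an island upstream of its start (chr5:144119226-144119592), where adult scores were -0.120, 0.212 and 0.647 and differentiated scores 1.69 in embryoid bodies, 1.64 after retinoic acid, 0.841 and 1.08 in endoderm and 1.52 in mesoderm. All 5 arrays were above the adult range, with a difference of 1.14 ± 0.125 (adjusted p = 8.67e-08). At its start the difference was 0.349 ± 0.141 (adjusted p = 0.0742).

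NMDA receptor subunits differed by position. Grin3b was higher at its start (chr10:79433454-79434091) by 0.978 ± 0.0945 (adjusted p = 1.02e-08), with no overlap between 0.259 to 0.845 in differentiated and -0.658 to -0.105 in adult arrays. Its island inside the gene (chr10:79439493-79440611) went the other way, by -0.957 ± 0.264 (adjusted p = 0.0083), from the highest adult score of the list. Grin2c, the subunit of mature cerebellar granule cells, was higher at its start (chr11:115127850-115128696), the promoter printed above, by 0.964 ± 0.108 (adjusted p = 1.29e-07). All 5 differentiated arrays, at 0.711 to 1.30, exceeded the adult arrays, at -0.168 to 0.264. A neighbouring Grin2c island further inside the gene was higher by 0.539 ± 0.0838, and the pair furthest from the start differed by -0.0331 and -0.204 and were not called.

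Grin1, lowest of all in adult tissue, was higher at its farthest island (chr2:25160552-25160988) by 0.866 ± 0.144 (adjusted p = 4.4e-05), but reached a mean of only 0.169 ± 0.428 (SD, n = 5). Its start differed by 0.102 ± 0.0761 and was not called. Grin2d, a subunit of the embryonic brain, was higher at an island (chr7:53087705-53089136) that lies inside the gene and also near the start of Grwd1, by 0.657 ± 0.148 (adjusted p = 0.00148), and differed by -0.0332 ± 0.102 at its own start. Of Grin2a, whose start had an adult mean of 1.21, and Grin2b, at 2.33 inside the gene, no island was called, with differences of -0.0321 and -0.234. The second island lower in differentiated ES cells, inside Grik5, differed by -0.392 ± 0.141 (adjusted p = 0.0433), and its call was lost when embryoid bodies, either endoderm array or mesoderm was left out.

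**Figure D3:**
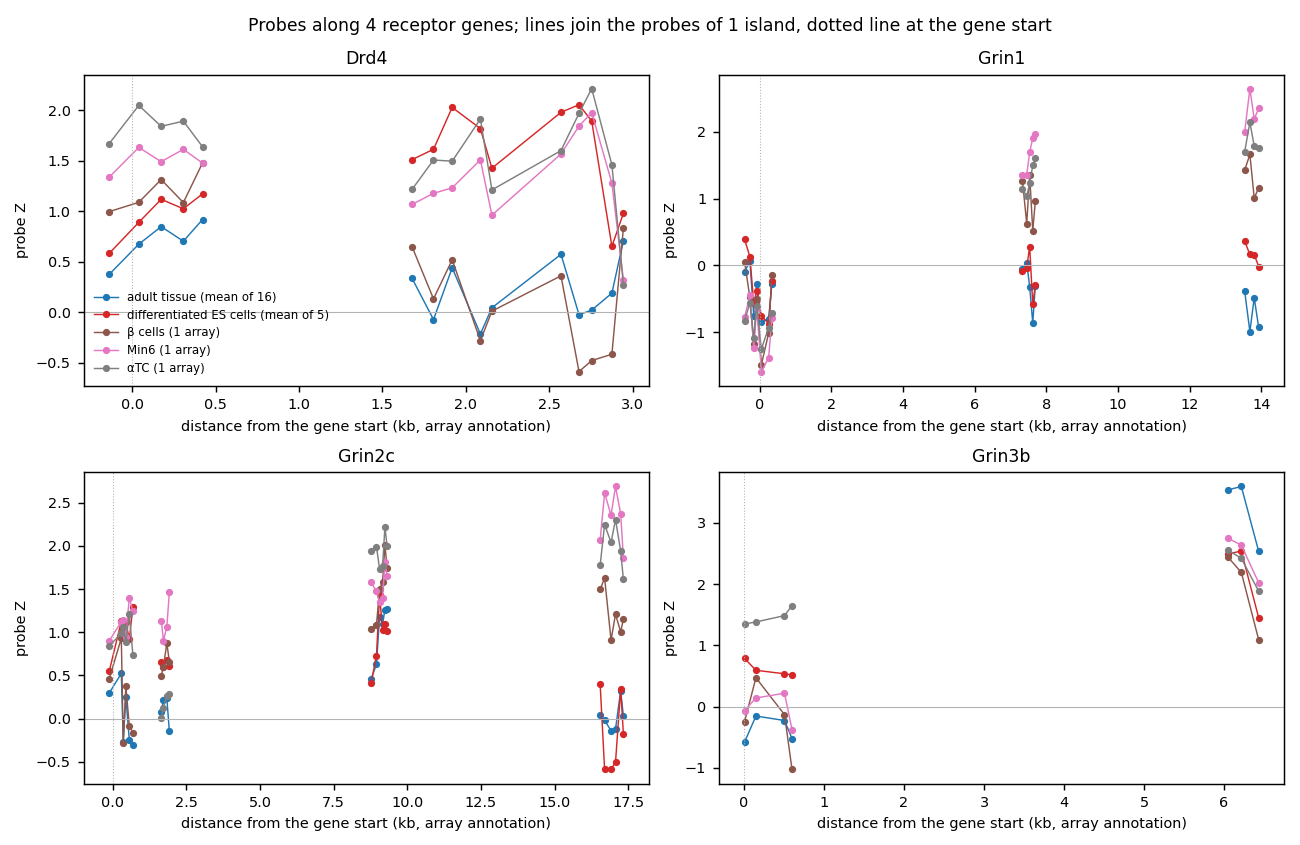
Probe Z-scores along Drd4, Grin1, Grin2c and Grin3b against the distance of the probe from the gene start in kb (array annotation), as means of adult tissue (blue) and differentiated ES cells (red) and as single arrays of β cells, Min6 and αTC; lines join the probes of an island. Red lies above blue along the Drd4 island inside the gene and at the start of Grin3b, and below blue at the Grin3b island inside the gene.

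Metabotropic glutamate receptors had 11 islands, with 2 higher and 2 lower. Grm5 (chr7:95278679-95279240) had adult scores of 0.273, 0.813 and 1.55 and differentiated scores of 2.24 in embryoid bodies, 1.57 after retinoic acid, 1.49 and 1.68 in endoderm and 2.04 in mesoderm. Only the highest adult array, a colon array, reached into the differentiated range. The difference was 1.01 ± 0.156 (adjusted p = 1.73e-05). Grm6 (chr11:50673147-50673484) differed by -0.734 ± 0.194 (adjusted p = 0.00622) and Grm4 (chr17:27571601-27572195) by -0.683 ± 0.207 (adjusted p = 0.016). The Grm4 call was lost without embryoid bodies and without endoderm replicate 1.

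The calls at GABA receptors stand beside 14.4% of all islands called higher and 8.53% called lower. Of 6 GABA-A islands, which encode subunits of the chloride channel of inhibitory synapses, only Gabrb1 was higher, by 0.541 ± 0.170 (adjusted p = 0.0199), and it lost the call when either endoderm array or mesoderm was left out. Gabra4 differed by 0.285 and was not called. The GABA-B receptor is a pair of G protein-coupled subunits, Gabbr1 and Gabbr2. Of their 4 islands 1 was higher and 1 lower. An island inside Gabbr1 (chr17:37187615-37188196) had adult scores of -0.134, 1.18 and 1.92 and differentiated scores of 0.0885 in embryoid bodies, 0.0942 after retinoic acid, -0.167 and -0.195 in endoderm and 0.207 in mesoderm. Here 2 differentiated arrays fell below every adult array and the other 3 were inside the adult range, at its low end. The difference was -1.002 ± 0.231 (adjusted p = 0.00184), and it was not called with the slide or the scan day as a block. Its start differed by -0.166 ± 0.102 and was not called. Gabbr2 was higher at one island by 0.406 ± 0.138 (adjusted p = 0.0318), a call lost without either endoderm array or mesoderm. The only glycine receptor island, at the start of Glrb, differed by 0.215 ± 0.129 (95% confidence interval -0.0490 to 0.478) and was not called.

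Serotonin receptors had 8 islands, of which 4 were higher and 1 lower. Htr7, a receptor that raises cyclic AMP, was higher at its start (chr19:36131064-36131713) by 0.637 ± 0.157 (adjusted p = 0.00347). Its differentiated scores were 0.915 in embryoid bodies, -0.263 after retinoic acid, 0.901 and 0.618 in endoderm and 0.729 in mesoderm, so that the retinoic acid array alone was low. Htr1f, Htr1d and Htr1b, which lower cyclic AMP, were higher by 0.516, 0.499 and 0.355. A second island of Htr1d (chr4:135998761-135999125), at 19345 to 19665 bases, was lower, with a difference of -0.942 ± 0.196 (adjusted p = 0.000659) from an adult mean of 2.71. Thus the pair of islands of Htr1d moved in opposite directions, as did those of Grin3b.

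Adrenergic receptors had 10 islands, of which 4 were higher and none lower. Adra2a and Adra2b, which couple to inhibitory G proteins, were higher at their starts by 0.626 ± 0.0698 and 0.467 ± 0.0945. Adra2b remained below 0 in the mean, at -0.112 ± 0.143 (SD, n = 5), as against -0.579 ± 0.181 in adult tissue. An island inside Adra1d was higher by 0.578 ± 0.165. Adrb1, the receptor of the heart, differed by 0.0564 ± 0.0825 (95% confidence interval -0.112 to 0.225), and neither island of Adra1b was called.

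**Figure D4:**
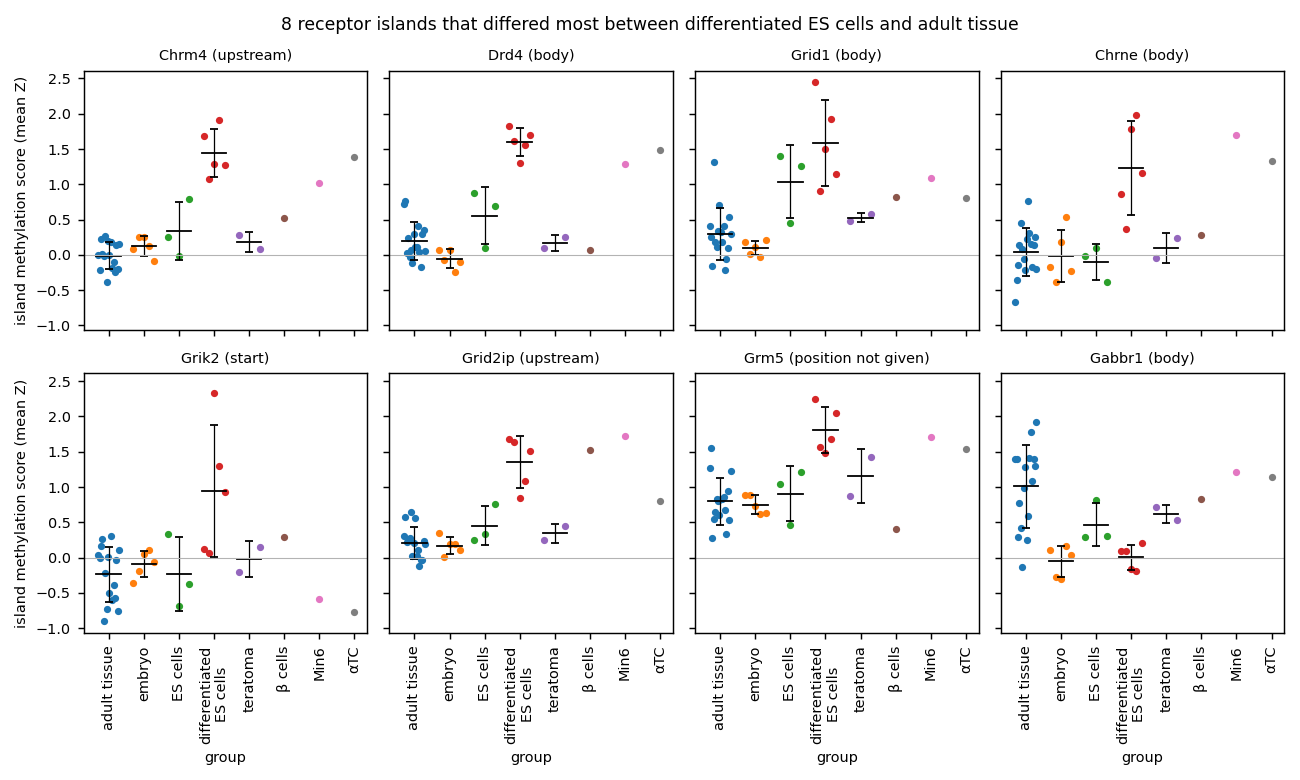
Island methylation score (mean Z-score) on each array at the 8 receptor islands that differed most between differentiated ES cells and adult tissue, 1 gene each; points are arrays, bars are means ± SD of groups of 2 or more. The mean of differentiated ES cells lies above that of adult tissue at 7 islands and below at Gabbr1, while single arrays overlap at Grid1, Chrne, Grik2, Grm5 and Gabbr1. Teratomas and embryos stay near the adult points at Chrm4 and Drd4.

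By position in the gene, the calls fell as follows. At gene starts 13 of 41 islands were higher and none lower, beside 11.8% and 6.59% of all islands at starts. Upstream of starts 4 of 9 were higher and none lower, beside 17.2% and 6.67%. Inside genes 12 of 32 were higher and 7 lower, beside 17.4% and 17.5%. Over all islands, too, lower calls were more frequent inside genes than at or upstream of starts, with positions taken from the gene to which most probes of an island give a distance. The remaining 2 higher islands have no distance in the annotation. No test of these shares was made. On the pair of slides that held both kinds of sample the directions were largely those of the whole. Endoderm replicate 2 minus pancreas replicate 1 on one slide was above 0 at 31 of the 31 higher islands and below 0 at 7 of the 7 lower. Embryoid bodies minus brain replicate 2 on another slide was above 0 at 29 of 31 and below 0 at 6 of 7. These arrays are part of the calls and give no separate support.

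By the thresholds of the study's legend, unmethylated is an IMS below 0 and methylated above 0.75. The study's Z-scores took account of the melting temperature (Tm) of the probes and those here did not. The same cuts therefore need not select the same islands as in the study. Of the 13 receptor islands below 0 on all adult arrays, 1 was above 0.75 on a differentiated array, beside 2.97% of the 4172 islands of the array that were below 0 on all adult arrays. It was the start of Grin3b, and only on endoderm replicate 1, at 0.845, with endoderm replicate 2 just under the threshold at 0.743. Without endoderm replicate 1 the count was 0, beside 97 of all islands. No receptor island of the 13 passed 0.75 in undifferentiated ES cells, embryos or teratomas, where 0.407%, 0.144% and 0.12% of these 4172 islands did. Elsewhere, Adra2a and Grin1 had means above 0 in differentiated ES cells, at 0.286 and 0.169.

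Undifferentiated ES cells were compared with adult tissue to see whether the differences were present before differentiation. This comparison, and that of embryos, uses the same 16 adult arrays as the one above. Of the 90 receptor islands 3 were called, beside 2.34% of all islands. All 3 were higher, beside 1% of all islands, and none was lower, beside 1.34%. They were the starts of Grin2c (0.493 ± 0.133, adjusted p = 0.0426), Drd1a (0.398 ± 0.109, adjusted p = 0.0473) and Grid1 (0.396 ± 0.109, adjusted p = 0.0478). At the Grin2c start the lines had 0.473 in EB5, 0.132 in J1 and 1.00 in TT2. TT2 was the highest and J1 the lowest, and J1 lay within the adult range.

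The count rested on single arrays. Without EB5 and without TT2 it was 0, and without J1, whose values departed from the deposited ones, it was 13. Of all islands, 0 were called without EB5, 0 without TT2 and 1186 without J1. The receptor count was also 0 with median-centred log2 ratios, with autosomes only, with a block for the slide or the scan day and with the methods' t-test. Of all islands these fits called 0, 326 of 13273, 300, 0 and 0 in this order. Without adjustment, at p under 0.05, limma gave 27 of the 90 receptor islands, beside 2330 of all 13651 islands. Over the 90 islands the median difference was 0.140, beside 0.0468 over all islands.

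Between differentiated and undifferentiated ES cells 15 receptor islands were called, beside 5.35% of all islands. After differentiation 11 were higher, beside 3.37%, and 4 lower, beside 1.99%. The largest difference was a fall, at Htr1d (chr4:135998761-135999125), by 1.56 ± 0.280 (adjusted p = 0.00127). Undifferentiated cells had 3.80 in EB5, 3.47 in J1 and 2.70 in TT2 there, and differentiated cells 1.49 in embryoid bodies, 2.15 after retinoic acid, 1.34 and 2.43 in endoderm and 1.41 in mesoderm. The ranges did not overlap, and the adult mean of 2.71 was close to the TT2 score. Grm4 fell by 1.33 ± 0.294 (adjusted p = 0.00718), a call lost without EB5. Chrne rose by 1.33 ± 0.284 (adjusted p = 0.00546), Grik2 by 1.19 ± 0.352 (adjusted p = 0.0452), Chrm4 by 1.10 ± 0.174 (adjusted p = 0.000367) and Drd4 by 1.04 ± 0.183 (adjusted p = 0.00108). The Grik2 call was lost when J1, TT2, either endoderm array or mesoderm was left out. The count was 9 without EB5, beside 446 of all islands, and rose to 24 when the retinoic acid array was left out, beside 1389. Differentiated and undifferentiated arrays shared no slide and no scan day, so that the comparison cannot be separated from these batches. The count was 2 with the slide as a block, 1 with normexp on median signals and 0 with both groups alone in the fit or with the methods' t-test. Of all islands these settings called 171, 22, 11 and 0 in this order.

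The lines and their derivatives can be set side by side at these islands, with 1 or 2 arrays each. At Drd4, TT2 had 0.688 and embryoid bodies from it 1.82, the retinoic acid array, TT2 by its label, 1.62, and EB5 had 0.872 against 1.30, 1.55 and 1.69 in its endoderm and mesoderm. At Grid1 the same order gave 1.26 with 2.44 and 0.903 for TT2, and 1.41 against 1.51, 1.92 and 1.15 for EB5. At Drd4 every derivative was above its line, whereas at Grid1 the retinoic acid array was below TT2 and mesoderm below EB5.

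Embryos addressed whether the same islands are methylated early in normal development. Of the 90 receptor islands 7 were called against adult tissue, beside 7.61% of all islands. In embryos 2 were higher, beside 4.53% of all islands, and 5 lower, beside 3.08%. The fall was largest at Gabbr1, with 0.113, -0.276, -0.309, 0.166 and 0.0340 in order of age and a difference of -1.06 ± 0.231 (adjusted p = 0.00339). Embryos and differentiated ES cells were thus both low at this island, and their difference was 0.0600 ± 0.285 (adjusted p = 0.91). The start of Drd4 had -0.263, -0.330, -0.269, -0.223 and -0.175 in embryos, against 0.0165, 0.751 and 1.15 (lowest, median, highest) in adult tissue, a difference of -0.955 ± 0.156 (adjusted p = 0.000205). Every embryo was below every adult array. Gabbr2 and Adra1d differed by -0.714 and -0.589, and Grik5, the last of the 5, by -0.577.

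Of the islands higher in embryos, that of Htr5b, a serotonin receptor of rodents, differed by 0.803 ± 0.249 (adjusted p = 0.0433), and this call was lost whichever embryo was left out. No receptor island was called when slide, scan day or software version was a block, beside 3, 0 and 2 of all islands. Since embryo and adult arrays share none of these, such fits reach the difference only through the other groups.

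Differentiated ES cells against embryos gave 33 receptor islands, beside 21.3% of all islands, with 29 higher and 4 lower. By direction these were 32.2% higher beside 11.7% and 4.44% lower beside 9.6%. The comparison uses the same differentiated arrays as that with adult tissue. Drd4 differed by 1.65 ± 0.159 (adjusted p = 3.06e-08), Grid1 by 1.49 ± 0.242, Chrm4 by 1.32 ± 0.150, Chrne by 1.24 ± 0.246 and Grid2ip by 1.18 ± 0.154. At all 5 the embryos were near the adult level, with means of -0.0536, 0.0969, 0.123, -0.0123 and 0.169 in the same order. Htr1d was lower in differentiated ES cells, with a difference of -1.12 ± 0.242 (adjusted p = 0.00141). Differentiated ES cells and embryos shared no slide and no scan day, so that this comparison, too, cannot be separated from these batches. With the slide as a block 3 receptor islands were called, beside 95 of all 13651 islands, and with the scan day 9, beside 345.

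Brain was compared with the other 7 adult tissues because most of these receptors act in neurons. No receptor island was called, beside 0% of all islands, and at an unadjusted p under 0.05 limma gave 5 receptor islands and 574 of all. The lowest p belonged to Gabbr1 inside the gene, where the brain arrays had 0.414 and -0.134 and the other tissues 0.244, 1.29 and 1.92 (lowest, median, highest). The difference was -0.992 ± 0.203 (adjusted p = 0.587), and 1 brain array lay below all others. Gabbr2 differed the other way, by 0.697 ± 0.227 (adjusted p = 0.9999). The Adrb3 value of 0.921 came from brain replicate 1 at 1.14, with replicate 2 at -0.761. With 2 brain arrays such differences could not be resolved.

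Teratomas, in which ES cells differentiate in the animal, gave no called receptor island against adult tissue, beside 0.308% of all islands called in either direction, 0.249% higher and 0.0586% lower. At an unadjusted p under 0.05 limma gave 7 of the 90 receptor islands, beside 1048 of all 13651 islands. The median difference was -0.0111, beside 0.0195 over all islands. At Chrm4 the teratomas had 0.286 and 0.0875, at Drd4 0.0918 and 0.2503 and at Chrne -0.0493 and 0.245, all inside the adult range or just above it. The 31 islands higher in differentiated ES cells had a median of 0.0104 in teratomas. Differentiated ES cells and teratomas were not tested against each other.

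Pancreatic islet cells were set side by side as single arrays, with no test. Of the 90 receptor islands 49 were above 0.75 in Min6, beside 19.6% of all islands, and 57 in αTC, beside 23.2%, while purified β cells had 23, beside 12.8%. Of the 13 islands below 0 on all adult arrays, 6 were above 0.75 in Min6, beside 4.72% of the 4172 such islands of the array, 9 in αTC, beside 6.9%, and 1 in β cells, beside 0.144%. The one in β cells was the farthest island of Grin1. In β cells 36 of the 90 scored below 0, beside 60.2%. Below 0 in β cells and above 0.75 in both lines were 5 islands, beside 2.79% of all islands, namely Adrb1, Grid1, Grik3, Grm7 and Htr1b. With a threshold of 1 these were 2, beside 244 of all islands. With median-centred ratios, which are in log2 units with 0 at the median of the probes, the receptor islands were 11, beside 682 of all islands.

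Grm7, a presynaptic glutamate receptor of low affinity, differed most between both lines and β cells, with -0.837 in β cells, 1.21 in Min6 and 1.82 in αTC at its start (chr6:110595643-110596332), against an adult mean of -0.460. Adrb3 was high in Min6 alone, with -1.03 in β cells, 1.73 in Min6 and 0.129 in αTC. Adrb1 had -0.460 in β cells, 0.955 in Min6 and 1.60 in αTC, while its mean was -0.471 ± 0.138 in adult tissue and -0.414 ± 0.141 in differentiated ES cells. The start of Gabrg3, one of the lowest islands of adult tissue, had -0.807 in β cells, 0.410 in Min6 and 1.35 in αTC. Htr1a, the main inhibitory serotonin receptor of neurons, had -0.591 in β cells, 0.585 in Min6 and 1.49 in αTC. Thus Adrb1, Gabrg3 and Grm7, which were not called in differentiated ES cells, were high in at least 1 islet line.

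Of the 5 genes with the highest adult scores, 4 scored lower in both lines than in β cells. Chrna4 had 3.92 in β cells, 2.30 in Min6 and 1.93 in αTC, and Grm6 had 2.81 in β cells, 1.78 in Min6 and 1.74 in αTC. The island with the highest adult mean, inside Grin3b, had 2.10 in β cells, 2.25 in Min6 and 2.06 in αTC, close together in all 3. The 7 islands that were lower in differentiated ES cells had medians of 2.80 in β cells, 1.86 in Min6 and 1.86 in αTC. The 31 higher ones had 0.291, 0.871 and 0.993. Grik2 was an exception among them, with 0.291 in β cells, -0.581 in Min6 and -0.770 in αTC, and Grin1 was high in β cells as well, with 1.31 in β cells, 2.30 in Min6 and 1.85 in αTC at its farthest island.

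**Figure D5:**
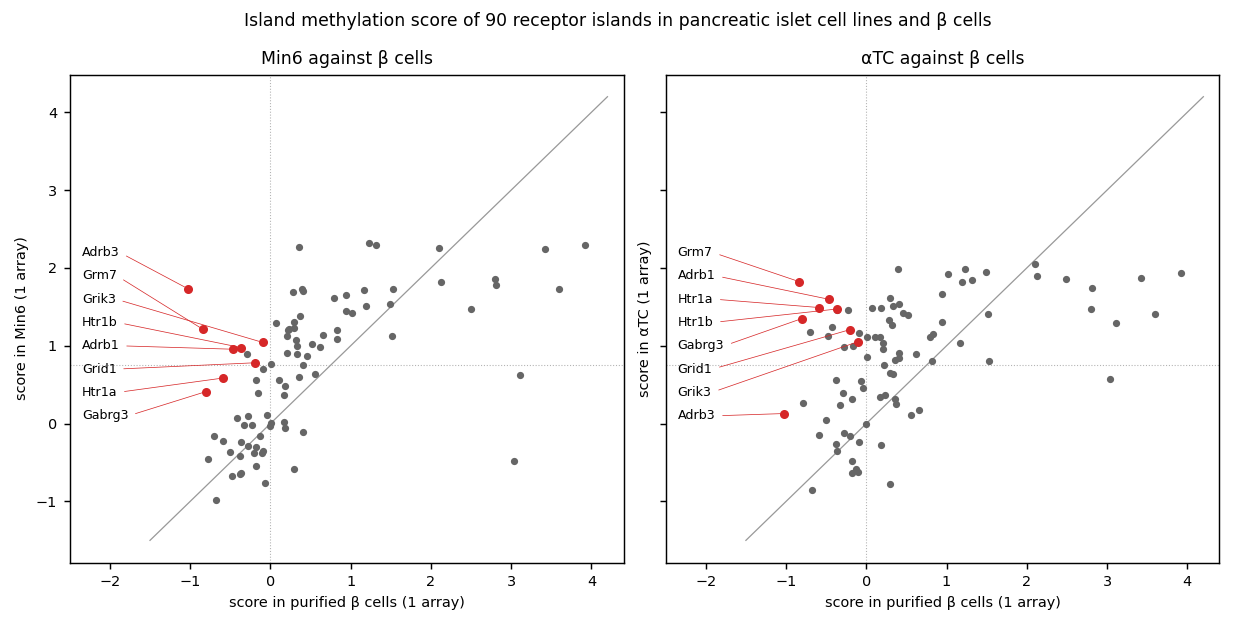
Island methylation score (mean Z-score) of the 90 receptor islands in Min6 (left) and αTC (right) against purified β cells, 1 array each; the diagonal marks equal scores and dotted lines mark 0 in β cells and 0.75 in the line. Red points are the 5 islands below 0 in β cells and above 0.75 in both lines and the 5 genes with the largest difference between the lines and β cells; most points with a low β cell score lie above the diagonal.

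Genes that act with these receptors, from a list of 63 names of scaffold, auxiliary and trafficking proteins, gave 50 other autosomal islands of 35 genes. Between differentiated ES cells and adult tissue 7 of the 50 were higher and 6 lower, or 14% and 12% beside 14.4% and 8.53% of all islands, with a median difference of -0.000587. In undifferentiated ES cells none was higher and 1 lower than in adult tissue, beside 1% and 1.34% of all islands, and in embryos 2 were higher and 2 lower, beside 4.53% and 3.08%. Between differentiated ES cells and embryos 2 were higher and 5 lower, beside 11.7% and 9.6%, and between differentiated and undifferentiated ES cells 1 was higher and 1 lower, beside 3.37% and 1.99%. The list and the receptors were not tested against each other.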

How the data were processed

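Spot intensity was read by the authors from 34 arrays with Agilent Feature Extraction (versions 9.5.3.1 to 10.9.1.1), and their deposited scanner files hold a log10 ratio of the bound over the input signal at each probe. A second, deposited table of the authors lists a standard score (Z), which they made within bins of probe Tm and which served here only as an alternative. Here Z was taken over all common probes of an array without bins, after control spots and outlier spots were left out. Positions are those of the newest array grid (mm9). Islands were fitted by lmFit and eBayes of limma 3.58.1 (R 4.3.3), with all groups of ES cells, embryos and adult tissue in 1 model and brain and teratomas in models of their own, and Benjamini-Hochberg adjustment over 13651 islands. The fit was tested on simulated data. Other steps used Python 3.11.15, pandas 2.3.3, numpy 2.4.6 and scipy 1.17.1.

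The members and lists were chosen with earlier results of these data known. For each gene and comparison the island with the largest absolute difference was named: 20 genes for differentiated ES cells against adult tissue (the first 8 array by array), up to 6 for each other comparison, 5 for the islet lines, the 5 highest and 5 lowest in adult tissue, and the extremes of each family. Results of 3 genes are not reported here, although their islands stay in all counts and fits. Other islands were named after their values were seen, and sequences followed the same list where a promoter was given. Alternatives changed the standardisation, background correction, source table, probe filters, island summary, batch terms, test, thresholds and arrays. The planned normexp correction of mean signals could not be run, and median signals were used instead, an alternative chosen after seeing the data, as were the older positions with all probes, and those for the count in β cells.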

Additional observations from a re-analysis of the deposited data

Results flagged for a closer look

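Each group of 5 embryos or 5 differentiated ES cell arrays was searched for an array far from the rest, by the gap to its nearest neighbour as a share of the group's range. Of 80 groups at 40 islands 5 passed Dixon's 95% critical value, and chance passes about 1 in 20 groups. In 3 the array was the embryo of 8.5 dpc. At the start of Adra1d it had 0.115 while the other embryos had -0.376 to -0.465 (share 0.846). Inside Gabrb1 it had -0.241 against -0.128 to -0.110 (share 0.863). For Htr7 the embryo had 0.219 and the others -0.159 to -0.202 (share 0.897). The embryo was the highest of its group at Adra1d and Htr7 and the lowest at Gabrb1.

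In the other 2 the array was the retinoic acid-treated culture, both times the lowest. At the start of Htr7 it had -0.263 while the other differentiated arrays had 0.618 to 0.915 (share 0.748). Grin2d, inside the gene, gave 0.489 against 1.07 to 1.20 (share 0.816). Both islands were higher in differentiated ES cells than in adult tissue with and without this array. The label and the methods name different parent lines for it.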

How the results depend on the processing

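For differentiated ES cells against adult tissue the count of 38 became 14 with normexp on median signals, 17 of 44 islands in the deposited table, 19 of 53 with at least 5 probes and 23 with the slide as a block, and leaving out 1 array gave 32 to 41. Of all islands, 3129 became 1200, 1304 of 5847, 1850 of 8805 and 1973 in this order, and 2449 to 3444 without 1 array. For differentiated ES cells against embryos the 33 became 10, 16, 16 and 3 in the same order, 9 with the scan day and 4 with the software version as a block, and 26 to 41 with 1 array left out. Of all islands, 2914 became 530, 1164 of 5847, 1772 of 8805, 95, 345 and 187, and 2278 to 3307 without 1 array. The 3 islands of undifferentiated ES cells became 0 with median-centred ratios, normexp, autosomes only, the methods' t-test, slide, scan day or both groups alone, 1 with the median of the probes or the software version, and 14 of 44 in the deposited table, with 0 to 13 when 1 array was left out. The 7 of embryos became 0 with normexp, slide, scan day or version, 2 of 44 in the deposited table and, taking the slide as a random block, 3, and 3 to 6 with 1 embryo left out, the lowest without the embryo of 9.5 dpc. The 15 between differentiated and undifferentiated ES cells became 6 with median-centred ratios or at least 5 probes, 1 with normexp, 9 without dim probes or with the median of the probes, 2 with the slide and 0 with the methods' t-test or both groups alone, and 9 to 24 with 1 array left out. Of all islands, 731 became 207, 403 of 8805, 22, 739 of 11023, 544, 171, 0 and 11 in this order. Leaving out 1 array gave 446 to 1389 of all islands. Brain stayed at 0 in each fit that could be made, and teratomas gave 7 with normexp, beside 1342 of all 13651 islands. The 13 islands below 0 in adult tissue became 4 with median-centred ratios, 0 with normexp, 31 at a threshold of 0.25 and 1 at -0.25. Of all islands, 4172 became 2126 with median-centred ratios, 244 with normexp, 7811 at a threshold of 0.25 and 971 at -0.25. With median-centred ratios and with normexp, 0 is the median of the probes and not their mean, and median-centred ratios are in log2 units. The thresholds of 0 and 0.75 are thus not the same cut there, also for the counts that follow. The single island that also passed 0.75 was lost (0) with normexp, the deposited table, the median of the probes, at least 5 probes, the older positions or a threshold of 1, became 2 at 0.5, and was 0 to 1 with 1 array left out. Of all islands, 124 became 8, 62 of 5847, 99, 68 of 8805, 120, 79 and 201 in this order, and 97 to 119 without 1 array. The 5 islands of the islet lines became 11 with median-centred ratios, 2 with normexp and 2 at a threshold of 1. Of all islands, 381 became 682, 142 and 244 in this order. The cause of these changes was not tested.

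Of 997 values over 51 results at named islands, 810 kept direction and call, 186 lost the call and 1 reversed, the far upstream Chrm4 island with normexp, at -0.0241. The median of all islands shifted past 0.1 with normexp for brain (-0.116) and teratomas (-0.151), in the deposited table for undifferentiated ES cells (0.110) and without dim probes for differentiated against undifferentiated ES cells (-0.119). Deviations of same-numbered adult arrays from their tissue mean correlated between tissues at -0.251 to 0.613 (median 0.0955, 13 of 28 pairs over 0.1). Same-numbered arrays thus deviated together in some pairs of tissues. In brain, kidney, liver, lung, muscle and spleen replicate 1 held 97651 probes and replicate 2 held 88737. With the replicate block brain and teratomas stayed at 0. Slide, scan day and version could not be fitted for brain, nor slide and scan day for teratomas. Signal over background limits dim islands, and groups of 1 to 3 arrays limit most the comparisons of undifferentiated ES cells, brain, teratomas and islet cells.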
